A study of Mus musculus with 4 samples.

Results

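The genes described here are 41 mouse genes of protein folding, unfolded protein sensing and protein disposal in the endoplasmic reticulum (ER). They were chosen by name and found in the count table through their Ensembl identifiers and GENCODE symbols, and the rule itself uses no measured value, although earlier results of these data were known when they were chosen. All 41 were found among 55401 gene identifiers, and all 41 passed the low-count filter, which left 13916 genes tested. They comprise 10 chaperones and chaperone cofactors, 3 genes of the lectin chaperone cycle, 7 thiol enzymes and related factors, 5 unfolded protein sensors and their transcription factors, 12 genes of ER-associated degradation (ERAD), and 4 genes of protein entry and UFM1 conjugation.

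Proteins that enter the ER are bound by chaperones, receive glycans and disulfide bonds, and leave only once folded. When unfolded proteins accumulate, the sensors IRE1, ATF6 and PERK start the unfolded protein response, in which XBP1, ATF6 and ATF4 raise transcription of chaperones and of disposal factors. ERAD recognises proteins that fail to fold, moves them across the ER membrane and marks them with ubiquitin for the proteasome.

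RNA was sequenced from ZBTB21-degron mouse embryonic stem cells (mESCs) to ask how RNA levels differed once ZBTB21, a zinc finger protein of the BTB family, was removed. In these cells a degron and GFP were added to the C-terminus of endogenous ZBTB21 on both alleles, in homogenous clones of a line that carries OsTIR1, the plant receptor that links auxin to protein destruction. Degron cells (2 libraries) were given 1 µg/ml doxycycline for 24 h, after which the auxin IAA was added at 500 µM for another 24 h, and untreated cells (2 libraries) were the same degron-tagged cells that did not get IAA. Both groups were grown with 3 µM CHIR99021, 0.5 µM PD0325901 and 1000 U/ml mLIF. Whether doxycycline was also given to untreated cells is not stated. No cells with intact ZBTB21 and the same additions were analysed here, so effects of the additions and of ZBTB21 loss cannot be told apart.

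The libraries held 9055498 and 8344408 counts in degron cells and 10604451 and 9431642 counts in untreated cells. Replicate libraries were close, with a mean chi-square per gene of 1.601 in the degron pair and 2.10 in the untreated pair, against 17.1 to 18.0 between groups. Nothing in the labels says that the replicates were separate cultures, and the p-values then reflect only library-to-library spread, which may be technical. With 2 libraries against 2, the smallest two-sided p of an exact permutation test on 1 gene is 0.333, so calls rest on a model that shares the spread over genes. All 10 embryonic stem cell markers had counts, and they summed to 6503 and 6552 CPM (counts scaled to a common library size) in degron cells and to 6682 and 6862 CPM in untreated cells, with 3 higher and 4 lower. Markers of extraembryonic endoderm, 15 in all with Ttr at 0, summed to 924.5 and 945.3 CPM in degron cells and to 796.0 and 789.6 CPM in untreated cells, with 3 higher and 2 lower of 9 tested. Most of this sum was Sparc, at 759 and 784 CPM in degron cells and 632 and 637 CPM in untreated cells. Gata6, Sox7, Foxa2, Thbd and Afp were below 1 CPM in every library, and Lamb1 and Col4a1 were the genes called lower. Neural markers, 10 in all with Dcx and Neurog2 at 0, summed to 153.8 and 156.4 CPM in degron cells and to 191.1 and 188.0 CPM in untreated cells, with 3 lower of 5 tested. Nes and Tubb3 made up most of the neural sum. Trophoblast markers, 11 in all with Prl3d1 at 0, summed to 167.1 and 172.8 CPM in degron cells and to 171.3 and 166.7 CPM in untreated cells, with 2 higher and 1 lower of 7 tested. Tfap2c and Krt8 made up most of the trophoblast sum. Fibroblast markers, 12 in all with Postn, Dcn, Lum and Fap at 0, summed to 7.75 and 7.29 CPM in degron cells and to 11.4 and 12.8 CPM in untreated cells, with 1 lower of 3 tested. The part of these cells in the results was not tested, and in bulk RNA fewer cells of a type and less RNA per cell cannot be told apart. Zbtb21 mRNA had 130 and 133 CPM in degron cells, against 61.7 and 56.9 CPM in untreated cells. Since IAA removes the protein, not the transcript, this level is no check of the labels.

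Among the 41 genes, the ERAD factors and the sensors that were called were all higher in degron cells, whereas most of the called chaperones were lower. Herpud1, an ERAD factor of the ER membrane, rose 2.48-fold, and Hsp90b1, the HSP90 chaperone of the ER, fell to 0.562 of its untreated level. In edgeR's quasi-likelihood test with Benjamini-Hochberg adjustment over all 13916 genes, at an adjusted p under 0.05, 16 of the 41 genes rose and 9 fell. Of all genes tested, 22.2% rose and 21.6% fell, and 43.8% were called in either direction. The share called among the 41 genes was 61.0%, with 39.0% higher and 22.0% lower. The median log2 fold change, degron over untreated, was 0.06 over the 41 genes and 0.01 over all genes tested. Changes were mostly modest. Of the 25 called genes 9 differed at least 1.5-fold and only Herpud1 differed at least 2-fold. Over all genes tested, 726 of the 6093 called differed at least 2-fold.

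Separation of the libraries was read without a model. Both degron libraries lay above both untreated libraries for 21 of the 41 genes and below them for 14, and the groups overlapped for 6. Groups that do not overlap were found for 70.6% of all genes tested. All 25 called genes were among the 35 that did not overlap. The counts of calls depended on the tool. DESeq2 called 8 of the 41 genes higher and 7 lower, all 15 of them also called by edgeR, beside 22.0% of all genes it tested in either direction. A test against a minimum change of 1.5-fold (glmTreat in edgeR) left Herpud1, Sel1l and Dnajc3 higher and Hsp90b1 and Pdia6 lower, beside 3.78% of all genes.

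**Figure D1:**
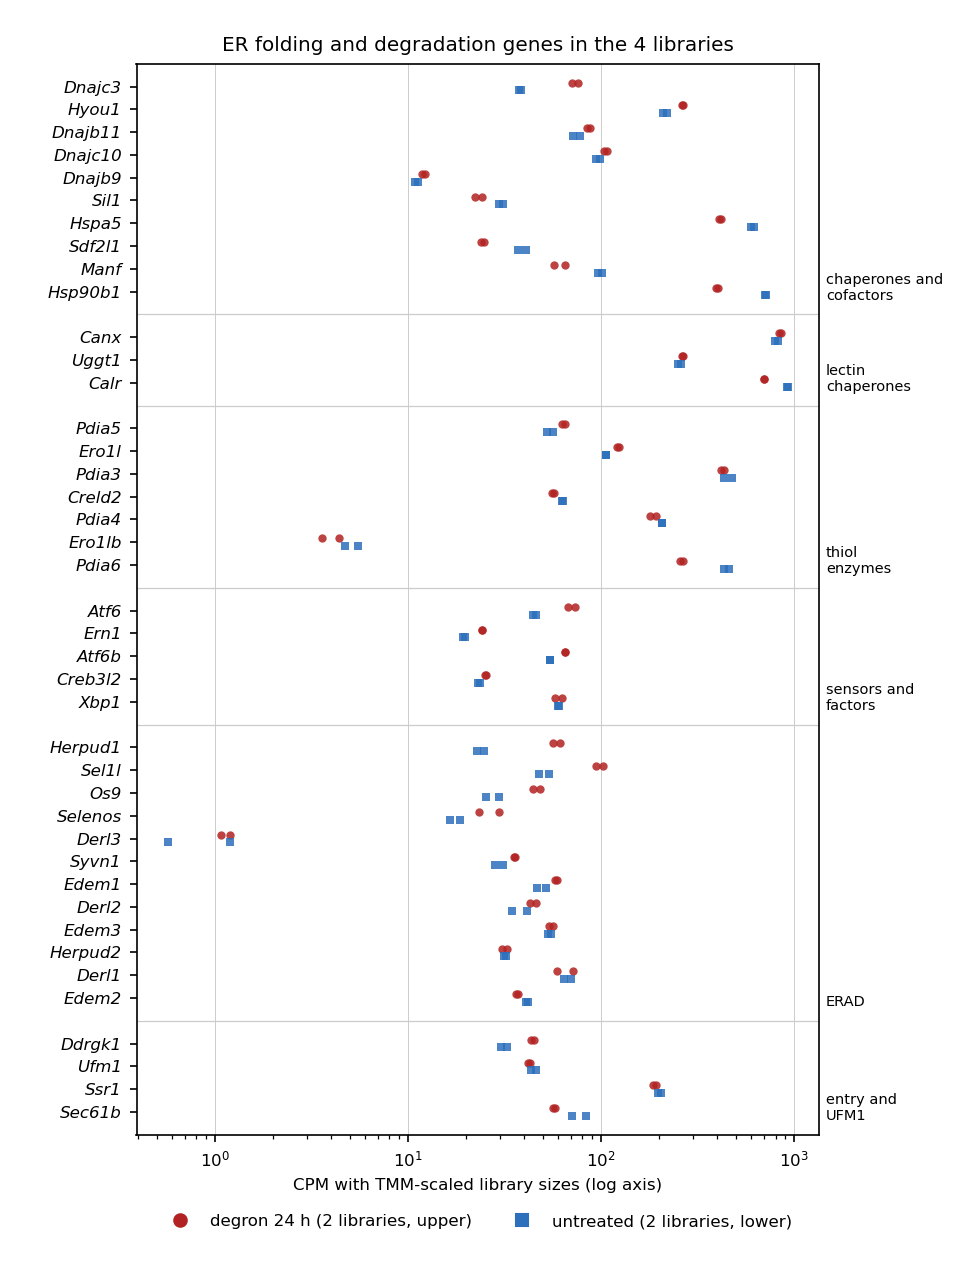
CPM of each of the 41 genes in the 4 libraries, on a log axis, grouped by role and ordered in each role by log2 fold change. Circles are the 2 degron libraries and squares the 2 untreated libraries. The markers of Herpud1, Sel1l, Os9 and Dnajc3 are far apart with degron to the right, those of Hsp90b1, Hspa5, Pdia6, Sdf2l1 and Manf with degron to the left, and those of Xbp1 and Herpud2 lie on each other.

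Of the 10 chaperones and cofactors 5 fell, 3 rose and 2 were not called, beside 21.6% lower and 22.2% higher over all genes tested. Their median log2 fold change was -0.13. Hspa5 and Hsp90b1, the chaperones with the most counts, both fell. Hspa5, the ER HSP70 also known as BiP (ENSMUSG00000026864.13, chromosome 2, 34771970 to 34777547, mm10), had 406 and 419 CPM in degron cells, against 598 and 620 CPM in untreated cells. Hsp90b1 (ENSMUSG00000020048.13, chromosome 10, 86690209 to 86705509) had 402 and 392 CPM in degron cells, against 704 and 710 CPM in untreated cells. For both genes the replicates lay close together and the groups were far apart. The log2 fold changes were -0.56 ± 0.05 for Hspa5 and -0.83 ± 0.06 for Hsp90b1 (SE, edgeR adjusted p = 3.44e-14 and 5.97e-22). The exons of Hsp90b1 share 415 of 4032 bases with a pseudogene on the opposite strand, 1810014B01Rik, and 133 and 84 bases with RNAs on the same strand. How the counting treated strand is not given in the sources used here.

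Smaller partners of these chaperones fell as well. Sdf2l1, which forms a complex with ER J-domain proteins, had 24.7 and 23.8 CPM in degron cells, against 40.8 and 37.3 CPM in untreated cells. Manf, a small secreted ER protein that binds HSPA5, had 57.1 and 65.3 CPM in degron cells, against 96.5 and 101 CPM in untreated cells. In each gene both degron libraries were well below both untreated ones. Their log2 fold changes were -0.69 ± 0.10 and -0.70 ± 0.07 (SE, edgeR adjusted p = 6.15e-09 and 1.95e-14). Manf shares 146 exonic bases with Dcaf1 and 166 with an antisense RNA, both on the opposite strand. Sil1, a nucleotide exchange factor for HSPA5, had 22.1 and 24.2 CPM in degron cells, against 29.4 and 30.9 CPM in untreated cells. Its log2 fold change was -0.38 ± 0.10 (SE, edgeR adjusted p = 0.00170).

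Other cofactors of HSPA5 moved the opposite way. Dnajc3, a J-domain cochaperone also known as an inhibitor of PERK (ENSMUSG00000022136.8, chromosome 14, 118937976 to 118981697), had 70.4 and 76.3 CPM in degron cells, against 38.4 and 37.6 CPM in untreated cells. It rose 1.92-fold, with 0.94 ± 0.07 as the log2 fold change (SE, edgeR adjusted p = 3.77e-18). Hyou1, a large HSP70-like exchange factor for HSPA5, had 266 and 263 CPM in degron cells, against 220 and 210 CPM in untreated cells. Dnajb11, a J-domain protein that hands unfolded substrates to HSPA5, had 84.8 and 87.3 CPM in degron cells, against 71.6 and 77.5 CPM in untreated cells. The groups did not overlap in either gene, and the changes were small, with log2 fold changes of 0.30 ± 0.05 and 0.21 ± 0.06 (SE, edgeR adjusted p = 3.27e-06 and 0.00603). Thus Sil1 and Hyou1, both exchange factors of HSPA5, were called in opposite directions. The J-domain genes Dnajc10, a disulfide reductase, and Dnajb9, which binds unfolded proteins and restrains IRE1, were not called, with log2 fold changes of 0.13 ± 0.06 and 0.11 ± 0.15 (SE).

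The calls of Sil1 and Dnajb11 were lost in some settings. DESeq2 gave adjusted p = 0.107 for Sil1 and 0.177 for Dnajb11, and edgeR without degron replicate 1 gave 0.0577 for Sil1. For Dnajb11 edgeR gave adjusted p = 0.0792 without degron replicate 2 and 0.123 without untreated replicate 1. Over all alternatives that test for any change, the adjusted p ran from 0.000464 to 0.107 for Sil1 and from 0.00129 to 0.177 for Dnajb11.

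Promoter sequences are shown for the genes on which the contrast turns, because the classical targets of ATF6 and XBP1 carry known elements close to their start sites. The ER stress element ERSE was searched as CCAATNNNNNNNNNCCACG, ERSE-II as ATTGGNCCACG, the core of the unfolded protein response element (UPRE) as TGACGTG, and the C/EBP-ATF response element (CARE), a site of ATF4 and CHOP dimers, as TGATGNAA. Both strands of RefSeq windows (GRCm38.p6) were read from 250 bases before to 50 after each start site, where the start base is position 0. Capitals mark a match, and a match is a description of letters, not a measured site. Only exact matches of the fixed letters were counted, so elements with a changed letter went unmarked. Hspa5 (chr2:34771920-34772055, plus strand) holds a UPRE core and an ERSE. The GENCODE gene of Hspa5 begins at 34771970, before the RefSeq start. Its ERSE, at 34772025 to 34772043, thus lies inside the GENCODE gene. Hsp90b1 (chr10:86705524-86705664, minus strand) holds 2 ERSE matches, the one nearer the start on the reverse strand.
Hspa5: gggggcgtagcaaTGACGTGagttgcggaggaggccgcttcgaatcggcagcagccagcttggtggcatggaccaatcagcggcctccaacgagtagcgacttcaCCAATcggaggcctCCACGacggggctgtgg
Hsp90b1: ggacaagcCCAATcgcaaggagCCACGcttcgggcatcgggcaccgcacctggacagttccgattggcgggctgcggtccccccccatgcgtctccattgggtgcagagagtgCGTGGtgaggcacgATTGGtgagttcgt

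In the lectin chaperone cycle, which holds glycoproteins until they are folded, Calr fell while Canx and Uggt1 were not called. Calr, the soluble lectin calreticulin (ENSMUSG00000003814.8, chromosome 8, 84841850 to 84846934), had 698.3 and 698.5 CPM in degron cells, against 919 and 928 CPM in untreated cells. Its log2 fold change was -0.40 ± 0.06 (SE, edgeR adjusted p = 6.28e-09), with both degron libraries below both untreated ones. Canx, its membrane-bound relative calnexin, had 834 and 857 CPM in degron cells, against 799 and 826 CPM in untreated cells. Uggt1, which reglucosylates glycoproteins that are not yet folded, had 264 and 263 CPM in degron cells, against 258 and 251 CPM in untreated cells. For Canx and Uggt1 the log2 fold changes were 0.06 ± 0.06 and 0.05 ± 0.05 (SE).

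Of the 7 thiol enzymes and related factors 2 fell, 2 rose and 3 were not called. The largest change was that of Pdia6, a protein disulfide isomerase that also binds IRE1 (ENSMUSG00000020571.13, chromosome 12, 17266545 to 17284770). Pdia6 had 265 and 257 CPM in degron cells, against 431 and 460 CPM in untreated cells. The log2 fold change was -0.77 ± 0.05 (SE, edgeR adjusted p = 1.80e-20). Pdia4, another disulfide isomerase, had 178 and 191 CPM in degron cells, against 206.6 and 207.3 CPM in untreated cells, a smaller log2 difference of -0.16 ± 0.05 (SE, edgeR adjusted p = 0.0102). Pdia5, a further family member, had 65.1 and 63.1 CPM in degron cells, against 52.5 and 56.5 CPM in untreated cells. Ero1l, the oxidase that reoxidises the disulfide isomerases, had 121 and 123 CPM in degron cells, against 105 and 106 CPM in untreated cells. Pdia5 and Ero1l thus rose slightly, with log2 fold changes of 0.24 ± 0.07 and 0.21 ± 0.06 (SE, edgeR adjusted p = 0.00482 and 0.00228). Pdia3, the isomerase that works with calreticulin and calnexin, Ero1lb, a paralog of Ero1l, and Creld2, an ER stress-inducible factor, were not called, with log2 fold changes of -0.09 ± 0.06, -0.36 ± 0.24 and -0.16 ± 0.07 (SE).

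Calls in this class moved with the setting. DESeq2 gave adjusted p = 0.112 for Pdia4, 0.175 for Pdia5 and 0.0956 for Ero1l. Without degron replicate 1, edgeR gave adjusted p = 0.294 for Pdia4 and 0.0728 for Pdia5, which left 1 gene called in each direction, and without untreated replicate 1 it gave 0.0838 for Pdia5. Without untreated replicate 1, Pdia3 was called lower (edgeR adjusted p = 0.00787). Over all alternatives the log2 fold change ran from -0.21 to -0.11 for Pdia4 and from -0.18 to -0.02 for Pdia3. It ran from 0.17 to 0.29 for Pdia5 and from 0.20 to 0.24 for Ero1l. The promoter of Pdia6 (chr12:17266464-17266529, plus strand) is printed because Pdia6 fell beside Hspa5 and Hsp90b1, and its capitals mark 1 ERSE.
Pdia6: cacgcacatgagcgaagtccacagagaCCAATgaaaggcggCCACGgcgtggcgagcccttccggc

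Among the 5 sensors and factors 3 rose and 0 fell, beside 22.2% and 21.6% of all genes tested. Their median log2 fold change was 0.26. None was lower at an unadjusted p under 0.05 in edgeR, and DESeq2 called 1 higher and 0 lower. Atf6, a membrane-bound transcription factor released by cleavage in the Golgi (ENSMUSG00000026663.6, chromosome 1, 170704674 to 170867771), had 67.6 and 73.6 CPM in degron cells, against 44.3 and 46.0 CPM in untreated cells. It rose 1.56-fold, with 0.64 ± 0.07 as the log2 fold change (SE, edgeR adjusted p = 1.02e-11). Its paralog Atf6b had 65.3 and 65.0 CPM in degron cells, against 54.1 and 54.6 CPM in untreated cells. Ern1, which encodes the sensor and nuclease IRE1, had 24.1 and 24.2 CPM in degron cells, against 19.8 and 19.2 CPM in untreated cells. In both genes the degron libraries lay above the untreated ones, with log2 fold changes of 0.26 ± 0.07 and 0.31 ± 0.11 (SE, edgeR adjusted p = 0.00157 and 0.0205).

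Xbp1, the transcription factor that IRE1 activates by splicing its mRNA, had 62.7 and 57.9 CPM in degron cells, against 59.6 and 60.8 CPM in untreated cells. The groups overlapped, and the log2 fold change was 0.01 ± 0.07 (SE, edgeR adjusted p = 0.956). Counts per gene do not separate spliced from unspliced Xbp1. Creb3l2, a relative of ATF6, was not called, and its log2 fold change was 0.11 ± 0.11 (SE). Ern1 and Atf6b were not called by DESeq2, with adjusted p = 0.267 and 0.109. For Ern1 edgeR gave adjusted p = 0.0811, 0.0821 and 0.0629 without degron replicate 1, degron replicate 2 and untreated replicate 2. The log2 fold change over all alternatives ran from 0.29 to 0.34 for Ern1 and from 0.25 to 0.29 for Atf6b.

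The third sensor, PERK, acts through eIF2α and ATF4, and its gene Eif2ak3 stands outside the 41 genes. Eif2ak3 had 25.5 and 26.3 CPM in degron cells, against 27.6 and 24.6 CPM in untreated cells, and the groups overlapped. Atf4 had 518 and 536 CPM in degron cells, against 276 and 333 CPM in untreated cells. Ddit3, which encodes CHOP, a target of ATF4, had 88.3 and 101 CPM in degron cells, against 13.0 and 14.4 CPM in untreated cells. The log2 fold changes were -0.01 ± 0.10 for Eif2ak3, 0.80 ± 0.06 for Atf4 and 2.79 ± 0.09 for Ddit3 (SE, edgeR adjusted p = 0.922, 1.14e-19 and 2.32e-40).

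Of the 12 ERAD genes 7 rose and 0 fell, beside 22.2% and 21.6% of all genes tested. Their median log2 fold change was 0.25. At an unadjusted p under 0.05 in edgeR 1 gene, Edem2, was lower, and DESeq2 called 0 lower. Herpud1, which brings together the membrane complex of ERAD (ENSMUSG00000031770.16, chromosome 8, 94386438 to 94395377), had 56.5 and 61.4 CPM in degron cells, against 22.7 and 24.8 CPM in untreated cells. Its log2 fold change was 1.31 ± 0.09 (SE, edgeR adjusted p = 5.97e-22). Sel1l, the adaptor that couples substrates to the ubiquitin ligase HRD1 (ENSMUSG00000020964.14, chromosome 12, 91806043 to 91849157), had 94.1 and 103 CPM in degron cells, against 53.8 and 47.7 CPM in untreated cells. It rose 1.93-fold, with 0.95 ± 0.07 as the log2 fold change (SE, edgeR adjusted p = 4.94e-20). Even the lower degron library of each gene was well above the higher untreated library.

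Further members of the HRD1 complex were higher too. Os9, a lectin that recognises glycans of terminally misfolded proteins, had 44.4 and 48.1 CPM in degron cells, against 25.5 and 29.6 CPM in untreated cells. Selenos, a selenoprotein that recruits the p97 ATPase to the membrane, had 23.3 and 29.5 CPM in degron cells, against 18.7 and 16.6 CPM in untreated cells. Syvn1, the gene of HRD1 itself, had 35.3 and 35.8 CPM in degron cells, against 31.1 and 28.2 CPM in untreated cells. The log2 fold changes were 0.75 ± 0.09, 0.57 ± 0.12 and 0.26 ± 0.09 (SE, edgeR adjusted p = 6.90e-11, 3.86e-05 and 0.0186), so the ligase gene changed by less than its adaptor Sel1l. The difference between their changes was not tested.

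Of the 3 EDEM genes, which act in the mannose trimming that marks glycoproteins for disposal, Edem1 alone was called. Edem1 had 57.9 and 58.8 CPM in degron cells, against 51.5 and 46.3 CPM in untreated cells, and its log2 fold change was 0.25 ± 0.07 (SE, edgeR adjusted p = 0.00422). Derl2, a derlin of the retrotranslocation channel, had 42.9 and 46.2 CPM in degron cells, against 41.3 and 34.7 CPM in untreated cells, and its log2 fold change was 0.22 ± 0.09 (SE, edgeR adjusted p = 0.0278). The gap between the groups of Derl2 was narrow, since its lower degron library exceeded the higher untreated one by little. Edem2, Edem3, the derlin Derl1 and Herpud2, a paralog of Herpud1, were not called, with log2 fold changes of -0.17 ± 0.08, 0.03 ± 0.07, -0.04 ± 0.07 and 0.00 ± 0.09 (SE). Derl3, the remaining derlin, was close to the detection limit, at 1.20 and 1.07 CPM in degron cells and 0.568 and 1.19 CPM in untreated cells. It was not called, and its log2 fold change of 0.40 ± 0.48 (SE) was too uncertain to tell a modest change from none. The exons of Derl2 share 231 bases with Mis12, and those of Syvn1 share 91 with Mrpl49, on the opposite strand.

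DESeq2 called 4 ERAD genes, Herpud1, Sel1l, Os9 and Selenos, and gave adjusted p = 0.159 for Edem1, 0.309 for Derl2 and 0.265 for Syvn1. Without untreated replicate 2, edgeR also called 4, with adjusted p = 0.0734 for Edem1, 0.374 for Derl2 and 0.137 for Syvn1. Without degron replicate 2 it gave adjusted p = 0.223 for Derl2 and 0.0883 for Syvn1, and without degron replicate 1 it gave 0.0697 for Syvn1. With no low-count filter the adjusted p of Derl2 in edgeR was 0.0513. Over all alternatives the log2 fold change ran from 0.18 to 0.32 for Edem1, from 0.11 to 0.35 for Derl2 and from 0.19 to 0.33 for Syvn1. No ERAD gene was called lower in any of the 12 alternative settings. Herpud1 is the gene of the 41 with the largest change, and its promoter (chr8:94386304-94386399, plus strand) is printed for that reason. The capitals mark a CARE on the reverse strand and an ERSE-II.
Herpud1: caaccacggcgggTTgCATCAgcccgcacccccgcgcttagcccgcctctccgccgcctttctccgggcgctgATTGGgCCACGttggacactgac

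**Figure D2:**
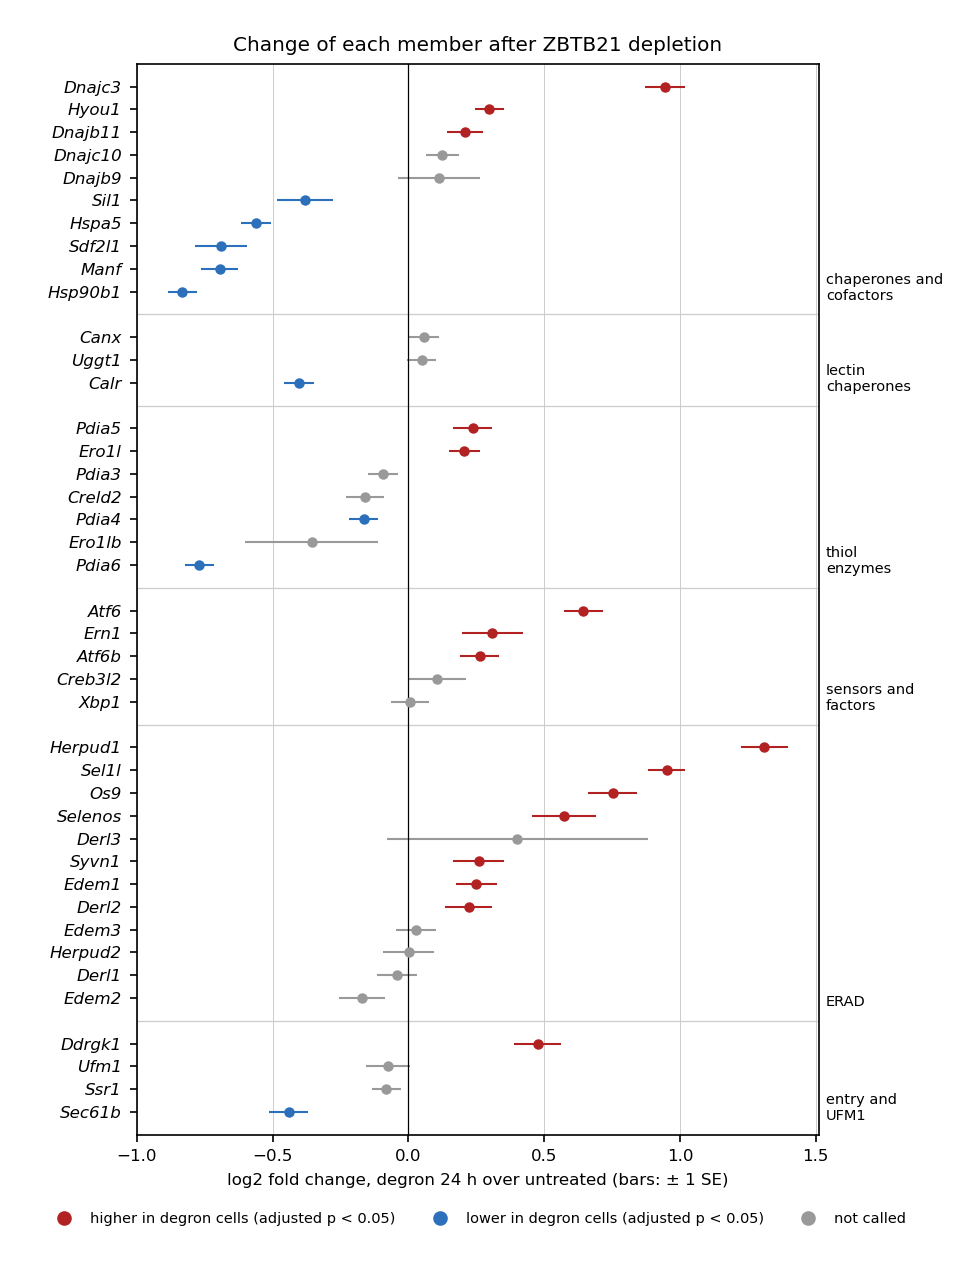
Log2 fold change of each gene, degron over untreated, with bars of 1 SE from edgeR (2 libraries a group), grouped by role. Red genes rose and blue genes fell at an adjusted p under 0.05, and grey genes were not called. The called sensors and ERAD genes all lie right of 0, up to 1.31 for Herpud1, while the folding classes reach from -0.83 for Hsp90b1 to 0.94 for Dnajc3.

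Protein entry and UFM1 conjugation were represented by 4 genes, of which 1 rose and 1 fell. Sec61b, a small subunit of the SEC61 channel through which proteins enter the ER, had 56.4 and 57.4 CPM in degron cells, against 71.0 and 83.9 CPM in untreated cells. Ddrgk1, a membrane adaptor of the UFM1 ligase, had 43.4 and 44.7 CPM in degron cells, against 32.7 and 30.5 CPM in untreated cells. The groups did not overlap in either gene, with log2 fold changes of -0.44 ± 0.07 and 0.48 ± 0.09 (SE, edgeR adjusted p = 3.84e-07 and 3.99e-06). Ssr1, a subunit of the translocon-associated protein complex, and Ufm1, the ubiquitin-like modifier itself, were not called, at log2 fold changes of -0.08 ± 0.05 and -0.07 ± 0.08 (SE).

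Summed levels, which the most abundant genes weigh most, also differed between roles. The 10 chaperones and cofactors summed to 1451 and 1467 CPM in degron cells, against 1909 and 1930 CPM in untreated cells, a difference of -24.0%. The 12 ERAD genes summed to 538.2 and 578.6 CPM in degron cells, against 437.3 and 424.9 CPM in untreated cells, a difference of 29.5%. The lower sum of the chaperones came from Hspa5 and Hsp90b1. Without these, set aside after their values were seen, the other 8 chaperones and cofactors summed to 643.2 and 655.4 CPM in degron cells, against 606.4 and 599.6 CPM in untreated cells, a difference of 7.68%, with 3 higher and 3 lower. Without Herpud1 and Sel1l, set aside in the same way, the other 10 ERAD genes summed to 387.5 and 414.4 CPM in degron cells, against 360.8 and 352.4 CPM in untreated cells, a difference of 12.4%. The 5 sensors and factors summed to 245.0 and 245.7 CPM in degron cells, against 201.2 and 203.7 CPM in untreated cells. For the lectin genes, the thiol enzymes and the entry and UFM1 genes the differences were -9.22%, -16.3% and -6.03%. All 41 genes took 0.554% and 0.559% of counts in degron cells and 0.614% and 0.616% in untreated cells.

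**Figure D3:**
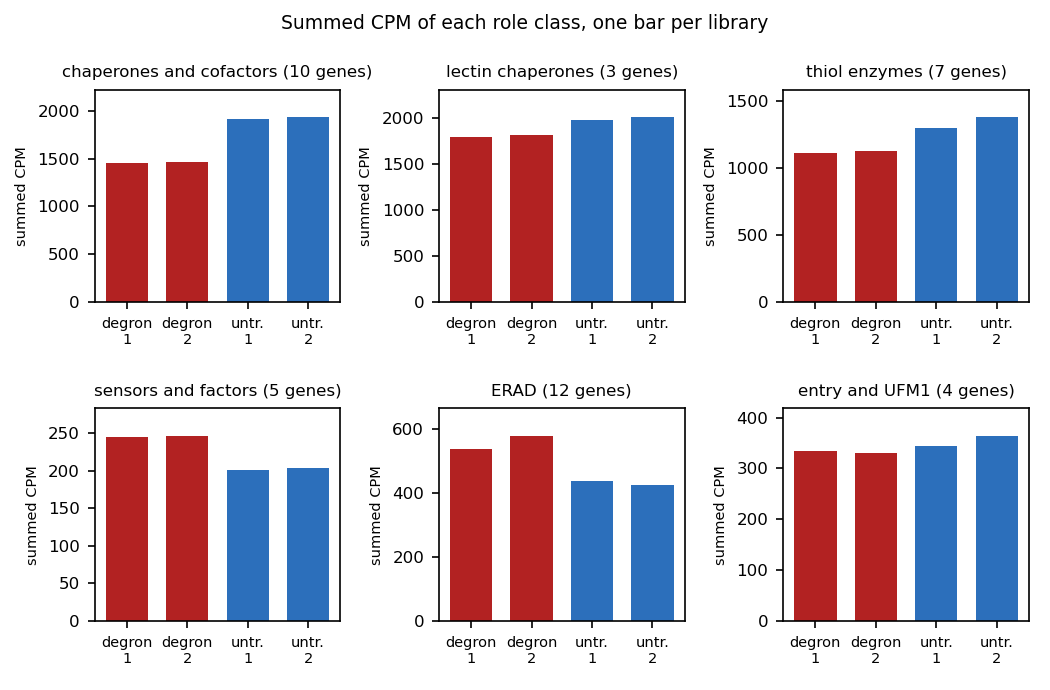
Summed CPM of the genes of each role, with 1 bar per library, degron (red) left of untreated (blue), and a separate linear axis from 0 for each role. The bars of chaperones reach 1451 and 1467 CPM in degron cells and 1909 and 1930 CPM in untreated cells, and those of ERAD 538.2 and 578.6 CPM in degron cells and 437.3 and 424.9 CPM in untreated cells.

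The chaperones, lectin genes and thiol enzymes together make up 20 folding genes, of which 5 rose and 8 fell, with a median log2 fold change of -0.13. Their summed CPM differed by -16.4%. Without Hspa5 and Hsp90b1, the remaining 18 had 5 higher and 6 lower, a median log2 fold change of -0.02 and a summed difference of -9.02%. The folding genes that fell included several of the most abundant. Of the 8 genes with a mean of at least 200 CPM over the 4 libraries, 1 rose and 4 fell. Of the 33 genes below that level 15 rose and 5 fell. That is 45.5% higher and 15.2% lower below 200 CPM. Over all genes tested 19.3% rose and 44.0% fell at or above 200 CPM, and 22.4% rose and 19.8% fell below it. The share that fell among the 8 abundant genes was thus near that of all genes at that level.

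Per kilobase of exon the order of the most abundant genes also differed between groups, without a test between genes. Length was that of all annotated exons of a gene merged, not of the transcripts expressed, so close ranks between genes depend on it. Calr was highest, at 242.5 CPM per kb in degron cells and 320.6 CPM per kb in untreated cells. In untreated cells Hsp90b1 and Canx came next, at 175.3 and 173.2 CPM per kb, followed by Pdia3 at 144.7 and Hspa5 at 144.1 CPM per kb. In degron cells Hsp90b1 and Hspa5, at 98.5 and 97.6 CPM per kb, stood below both Canx, at 180.1, and Pdia3, at 135.5 CPM per kb. Among the ERAD genes Herpud1 was highest per length in degron cells, at 25.3 CPM per kb against 10.2 in untreated cells.

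Genes near these in function were read from a list of 90 further ER genes, of which 88 were tested, 31 rose and 14 fell. That is 35.2% higher and 15.9% lower, beside 22.2% and 21.6% of all genes tested. The ERAD ligases, adaptors and extraction factors of this list had 9 higher and 3 lower of 24, and of the 6 other UFM1 genes 2 fell. Other chaperones and folding factors had 4 higher and 1 lower of 12 tested, unlike the chaperones among the 41 genes. Other thiol enzymes had 5 higher and 3 lower of 11 tested. For N-glycan transfer and trimming 6 of 13 rose and 2 fell, and for translocon and signal peptide genes 5 of 13 rose and 2 fell. Other sensors, proteases and factors had 2 higher and 1 lower of 9, with a median log2 fold change of 0.0075. Ube2j1, the ubiquitin-conjugating enzyme of HRD1, Aup1, a lipid droplet protein of ERAD, and Wfs1, the ER membrane protein wolframin, rose, with log2 fold changes of 0.79, 0.66 and 0.64. Tmx3, a membrane thioredoxin-like protein, and Cnpy2, an ER-resident protein, rose with log2 fold changes of 0.55 and 0.46.

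On the other side, Dad1, a subunit of the enzyme that attaches N-glycans, had 44.7 and 37.9 CPM in degron cells, against 86.4 and 81.6 CPM in untreated cells. Its log2 fold change was -1.02 ± 0.07 (SE, edgeR adjusted p = 4.74e-20). Clgn, a relative of calnexin, Ube2g2, an ERAD conjugating enzyme, and Sec61g, a small subunit of the SEC61 channel like Sec61b, had log2 fold changes of -0.56, -0.38 and -0.38. Erp29, an ER folding factor, and Cdk5rap3, a substrate adaptor of UFM1 ligation, both had log2 fold changes of -0.37. Exons of Aup1 share 753 of 3276 bases with Htra2, and those of Erp29 share 2210 of 9060 bases with Naa25, on the opposite strand.

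**Figure D4:**
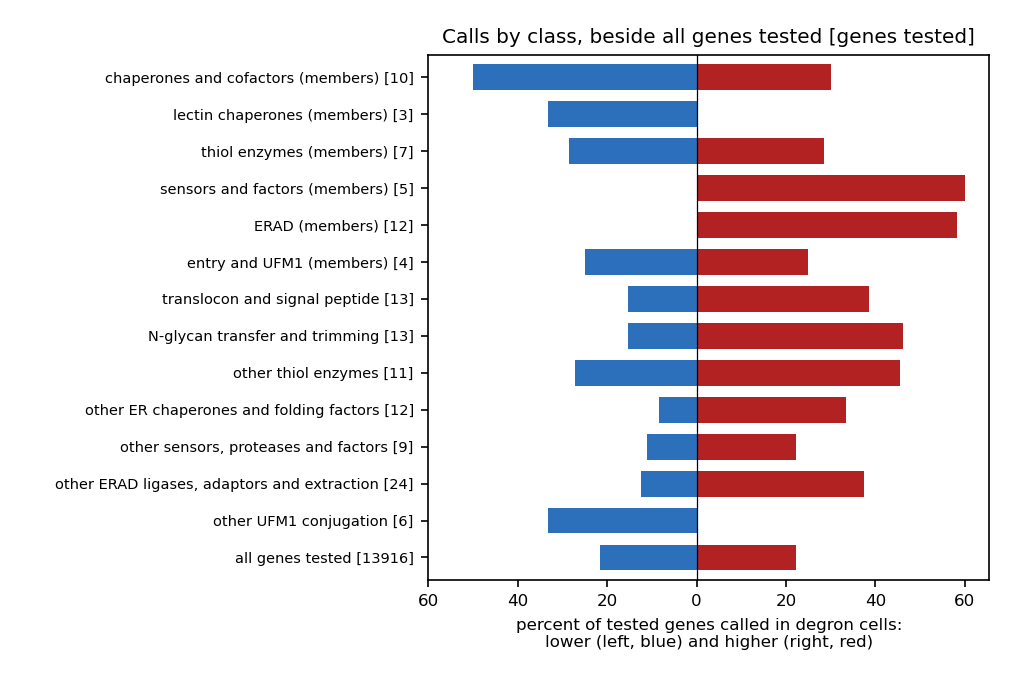
Percent of tested genes called lower (blue, to the left) and higher (red, to the right) in degron cells, for the 6 roles of the 41 genes, for the 7 groups of further ER genes and for all 13916 genes tested, with the number of genes tested in brackets. ERAD, with 58.3% higher and 0% lower, and the sensors, with 60.0% higher and 0% lower, have bars on the right side alone, against 22.2% higher and 21.6% lower over all genes.

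ERSE was found in genes that rose, that fell and that were not called. RefSeq promoter windows were matched for 36 of the 41 genes, and 10 of these held ERSE, which is 27.8%, against 0.119% of 32851 windows of all genes (39 windows). The list was chosen by name and includes classical targets of ATF6 and XBP1, so this difference is a description and no test. The first share counts genes and the second counts windows. The 10 genes included 2 that rose, 4 that fell and 4 not called, with a median log2 fold change of -0.26. Of the 26 matched genes with no exact ERSE match in the window 12 rose and 3 fell, with a median of 0.12. Over all genes tested 22.2% rose and 21.6% fell. The ERSE genes that fell each averaged at least 200 CPM over the libraries, as did Canx, which was not called. At or above that level 44.0% of all genes tested fell. Whether the calls go with ERSE or with level was not tested. By role, 8 of 17 folding genes, 2 of 11 ERAD genes and 0 of 4 sensors held ERSE. The matches of the genes that fell (Hspa5, Hsp90b1, Pdia6, Calr), rose (Dnajc3, Syvn1) or were not called (Canx, Creld2, Ero1lb, Derl3) are written below in the orientation of the element, with its fixed letters in capitals.
Hspa5: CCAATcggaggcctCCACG
Hsp90b1, farther from the start: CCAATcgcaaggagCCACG
Hsp90b1, nearer the start: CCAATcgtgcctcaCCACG
Pdia6: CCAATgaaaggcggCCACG
Calr: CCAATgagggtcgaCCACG
Dnajc3: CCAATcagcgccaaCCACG
Syvn1: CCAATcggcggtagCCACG
Canx: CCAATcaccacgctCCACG
Creld2: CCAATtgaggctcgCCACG
Ero1lb: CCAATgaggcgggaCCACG
Derl3: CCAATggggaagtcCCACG

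The spacer of 9 bases differed in each match. The rarer ERSE-II was found in 12 of all windows (0.0365%), among them those of Herpud1 and Dnajb11, both of which rose. The CARE was held by Herpud1 alone of the 36 genes, and by 3.97% of all windows. The UPRE core was held by Hspa5 alone of the 36 genes, and by 2.01% of all windows. Positions relative to the RefSeq start were not alike. The ERSE of Syvn1 began 44 bases before the start, that of Hspa5 65 bases before it, and that of Dnajc3 105 bases before it, while the ERSE-II of Dnajb11 lay 7 to 17 bases after it. The 2 matches of ERSE-II are given in the orientation of the element.
Herpud1: ATTGGgCCACG
Dnajb11: ATTGGcCCACG

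**Figure D5:**
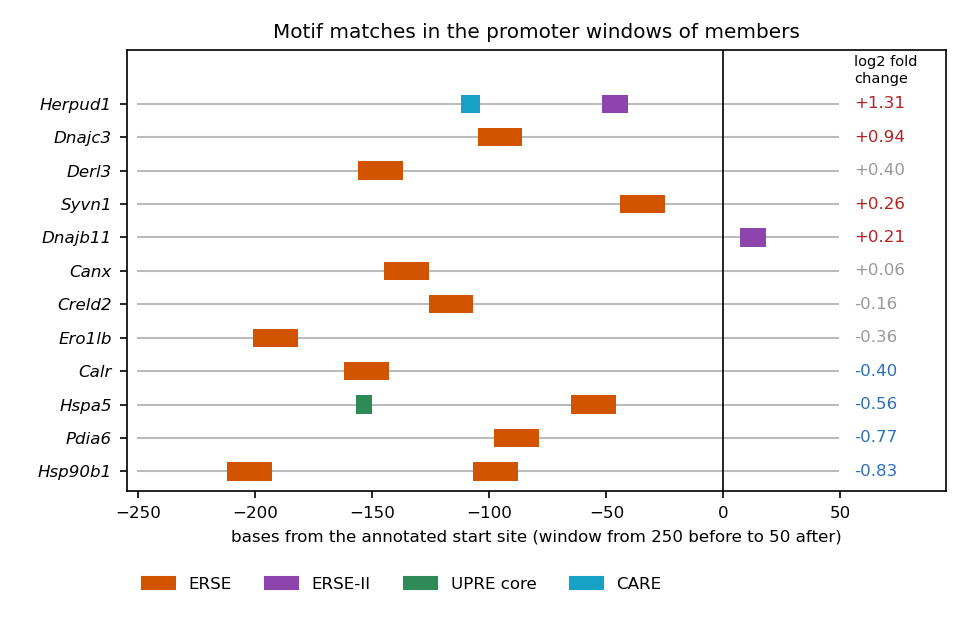
Position of the motif matches in the promoter windows of the 12 genes that hold any, in bases from the annotated start site, with 1 row per gene ordered by log2 fold change, which is printed at the right (red rose, blue fell, grey not called). ERSE boxes occur in rows from Dnajc3 (0.94) to Hsp90b1 (-0.83), and ERSE-II boxes in the rows of Herpud1 and Dnajb11.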

How the data were processed

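The deposited values were raw counts per gene. The authors trimmed reads with cutadapt 2.6, mapped them to mm10 with STAR 2.7.6a, kept primary alignments, removed PCR duplicates and counted with featureCounts 1.6.3 on GENCODE release 25, as the submitters' notes and the methods of the study give it. The labels describe poly(A) libraries. Removal of duplicates can lower counts of very abundant genes such as Canx and Calr. The strand setting is not given in the sources used here. Each of the 4 columns was matched to its sample by condition and replicate number.

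Symbols, coordinates and exonic lengths came from GENCODE release 21 (GRCm38), which matched 55141 of 55401 identifiers. The test was edgeR's quasi-likelihood F test (edgeR 4.0.16 in R 4.3.3) with group as the sole term, after filterByExpr and TMM scaling, and p-values were adjusted by Benjamini-Hochberg over 13916 genes, with calls made under 0.05. The procedure was also tested on simulated data. CPM used TMM-scaled library sizes. The SE was the size of the log2 fold change divided by the square root of F. DESeq2 1.42.0, other scalings and filters, protein-coding genes alone, the replicate block, a 1.5-fold minimum and each library left out were the alternatives. The common biological coefficient of variation was 3.31%. Every one of the 41 genes was accounted for, and of the further ER genes the 6 called with the smallest p on each side were named, except 1 that is not reported here. Those 91 listed genes gave 90 matches, and 2 of these were not tested. Eif2ak3, Atf4, Ddit3 and Zbtb21 were named beside them. The genes and lists were chosen with earlier results of these data known. Promoter windows were RefSeq's (GRCm38.p6), and no window was used for Atf6, Derl1, Sil1, Manf and Hyou1. A planned description of protein endings is not reported here.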

Additional observations from a re-analysis of the deposited data

How the results depend on the processing

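No call among the 41 genes changed direction in any of the 12 alternatives. DESeq2 called 1440 genes higher and 1484 lower, and 8 of the 41 genes higher. A minimum of 1.5-fold (glmTreat in edgeR) left 287 genes higher and 239 lower, and 3 of the 41 genes higher and 2 lower. Leaving out each library in turn gave 2357 to 2757 genes higher and 2156 to 2810 lower, and 12 to 14 of the 41 genes higher and 7 to 10 lower; the remaining library of a group was then assumed to vary like the other group. Replicate numbers did not pair the libraries (correlation of deviations 0.04), and a fit with the replicate block called 3369 genes higher and 3276 lower, and 17 and 11 of the 41 genes. In that fit Pdia3, Dnajc10 and Creld2 were gained. Other scalings, other low-count filters and protein-coding genes alone changed at most 1 call each, and the stricter filter left Derl3 untested. The scalings moved the median log2 fold change of all genes by at most 0.03.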
